A study of Schizosaccharomyces pombe with 8 samples.

Results

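The septins of the fission yeast Schizosaccharomyces pombe were examined in 2 strains, wild type and zfs1-deficient. zfs1 is the gene of a tandem CCCH zinc finger protein that the series describes as binding and destabilising mRNA. Probe sets were taken by gene symbol, spn1 to spn7, and all 7 genes were found, each with 1 probe set, among 2899 genes with 1 name on an array of 4994 yeast probe sets. They fall into 4 vegetative septins, spn1 to spn4, and 3 sporulation septins, spn5 to spn7. The medium was Edinburgh Minimal Medium with added adenine, histidine, leucine, lysine and uracil. Both strains grew in it at 30 °C to an A600, the optical density of the culture, of 1.0, and 4 cultures of each strain were hybridised to 1 array each. The labels call the second strain zfs1-deficient and give no further allele, marker or mating type for either strain. The question was how steady-state transcript levels differ when zfs1 is missing.

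Septins are GTP-binding proteins that join into rods and filaments at membranes. In growing fission yeast Spn1, Spn2, Spn3 and Spn4 form a complex that marks the division site as a ring late in cytokinesis, where it guides the enzymes that separate the daughter cells. During sporulation Spn5, Spn6 and Spn7, together with Spn2, form curved structures on the forespore membrane and orient its growth around each nucleus. Among the older names that the gene table lists are mde9 and meu28 for spn5 and mde8 for spn7. They date from screens for genes that depend on the meiotic transcription factor Mei4 or rise in meiosis.

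Signals are given on a log2 scale, and a positive difference means a higher signal in the zfs1-deficient strain. With 4 arrays a strain, precision is limited by their number. Array medians lay between 9.61 and 9.64. The strains were compared with limma across 4969 probe sets, with Benjamini-Hochberg adjustment over all of them, and a gene is said to rise or fall where its adjusted p was under 0.05. The zfs1 transcript lay at 10.51 ± 0.10 (SD, n = 4) in wild type. In all 4 deficient cultures it did not exceed the array's brightest reporter control, so it was at least 31.8-fold lower (adjusted p = 5.23e-07). Replicate 4 of either strain stood apart. Its root mean square deviation from the strain mean was 0.33 and 0.38 in the wild-type and the deficient strain, against 0.20 to 0.26 on the other arrays. Cultures of the same number deviated together, though not only they did, and values from a fit with that number as a block stand wherever they change a call.

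The vegetative septins were clearly detected in every culture, and in the sporulation class this was so for spn7 alone. The brightest reporter control, used as the measure of background, lay between 4.65 and 5.11 on the wild-type arrays and between 4.93 and 5.75 on the deficient ones. The 4 vegetative septins and spn7 exceeded it on all 8 arrays, as did 95.2% of the probe sets with a value on every array. spn7 lay above the control by a mean of 2.85 in wild-type and 2.07 in deficient cultures. For spn1 to spn4 the mean was 4.77 to 6.10 in wild-type and 4.29 to 5.53 in deficient cultures. spn5 exceeded the control on 3 of 4 wild-type arrays and on 0 of 4 deficient arrays, and spn6 did so on 0 of 8 arrays. Signals of different probe sets depend on their probes, so septins were not ranked against each other by level.

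**Figure D1:**
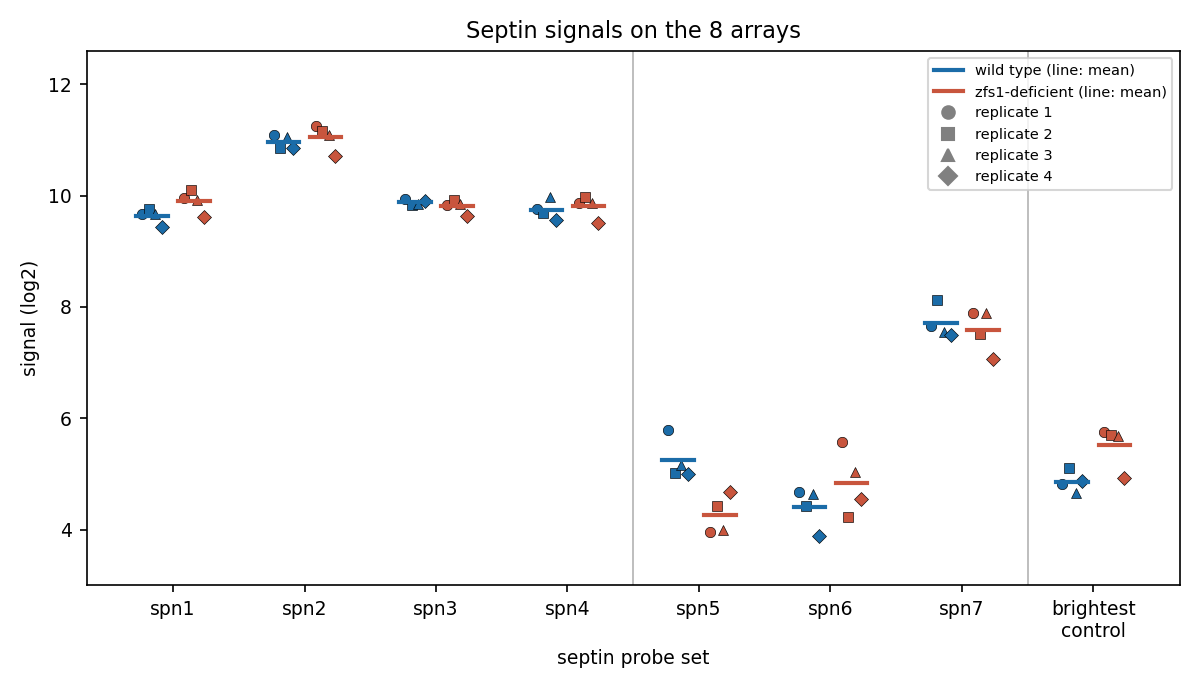
Log2 signal (vertical axis) of each septin probe set and, at the right, of the brightest reporter control of each array, in wild type (blue) and zfs1-deficient (red) cultures; symbols mark the replicate number and bars the mean of 4 arrays. The signals of spn1 to spn4 and spn7 lie above the controls on all 8 arrays, whereas spn5 and spn6 lie at about their level.

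Without the replicate block, none of the 7 septins passed the test between the strains, against 5.78% of all 4969 probe sets. At an unadjusted p under 0.05 it was 1 of 7, spn5, against 20.6% of all. The median difference of the 7 was 0.07, and that of all probe sets was -0.01. With the replicate number as a block 1 septin rose, spn1, against 24.2% of all probe sets called in either direction and 11.3% called higher.

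Of the vegetative septins, spn1 (SPAC4F10.11), a core subunit without which the ring does not form properly, was the one that was higher in every numbered pair. Its signal was 9.66, 9.76, 9.67 and 9.44 in wild-type cultures 1 to 4 and 9.95, 10.09, 9.92 and 9.61 in zfs1-deficient cultures 1 to 4. Deficient cultures 1 to 3 lay above all wild-type cultures, while culture 4 lay among them. The difference was 0.26 ± 0.12 (SE, n = 4 per strain; limma, adjusted p = 0.273), or 1.20-fold with a 95% interval of 0.99 to 1.45. Within the numbered pairs it ran from 0.17 to 0.33 and was higher in 4 of 4, as in 20.8% of probe sets. With the replicate block the standard error was 0.07 and spn1 passed (adjusted p = 0.0270; 95% interval of the fold 1.08 to 1.33). That call held without both replicate 4 arrays (difference 0.29, adjusted p = 0.0412), where 8.65% of probe sets were called higher. It was lost without both arrays of number 1 (adjusted p = 0.134), of number 2 (0.0671) or of number 3 (0.0726).

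spn2, spn3 and spn4 did not pass with or without the block. spn4 (SPAC9G1.11C), the second core subunit, had signals of 9.75, 9.69, 9.97 and 9.56 in wild-type cultures 1 to 4 and 9.87, 9.98, 9.87 and 9.51 in the deficient cultures. The strains overlapped, and the difference was 0.07 ± 0.13 (SE; adjusted p = 0.829), with a 95% interval of 0.85 to 1.28-fold. It was higher in 2 of 4 numbered pairs, so spn4 did not share the uniform sign of spn1.

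spn2 (SPAC821.06), the subunit that serves in both division and sporulation, had signals of 11.09, 10.86, 11.05 and 10.85 in wild type and 11.25, 11.16, 11.08 and 10.71 in the deficient strain. The deficient cultures spanned the whole wild-type range, since culture 1 was the highest and culture 4 the lowest of the 8. The difference was 0.08 ± 0.12 (SE; adjusted p = 0.753; 95% interval 0.88 to 1.28-fold).

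spn3 (SPBC16A3.01), whose loss disturbs cell separation only mildly, had signals of 9.94, 9.83, 9.86 and 9.91 in wild type and 9.84, 9.92, 9.85 and 9.63 in the deficient strain. Apart from deficient culture 4, all arrays lay within the wild-type range. The difference was -0.08 ± 0.09 (SE; adjusted p = 0.703; 95% interval 0.82 to 1.10-fold), and it was -0.01 without both replicate 4 arrays. For spn2, spn3 and spn4 the intervals exclude a change as large as 1.5-fold in either direction, and with the block they were 0.94 to 1.19-fold, 0.84 to 1.08-fold and 0.92 to 1.19-fold in that order.

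**Figure D2:**
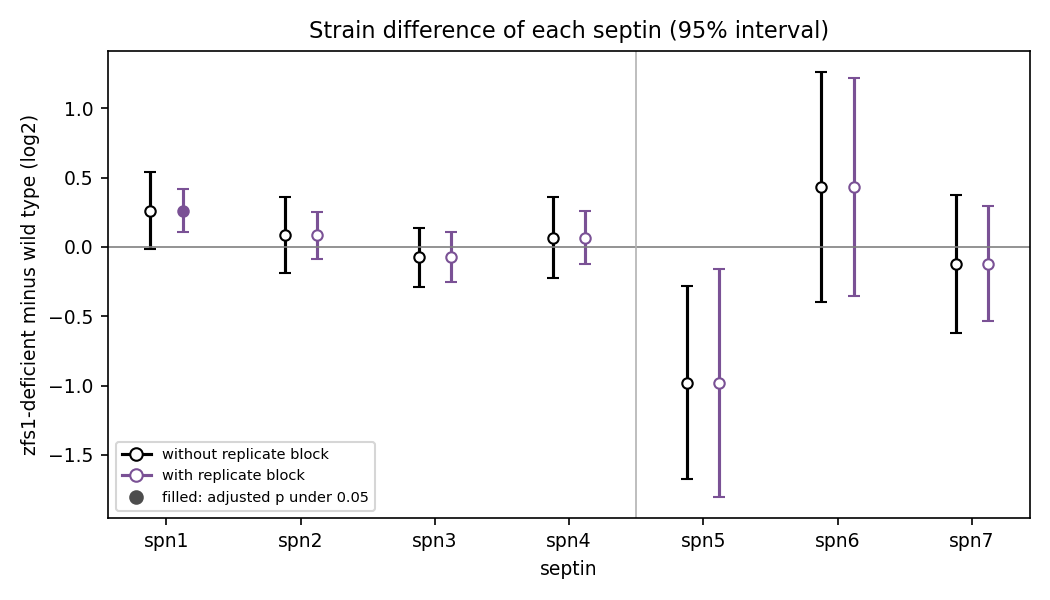
Difference between the strains (log2, vertical axis) of each septin with its 95% interval, without (black) and with (purple) the replicate number as a block; filled symbols have an adjusted p under 0.05. spn1 is the 1 filled symbol, with the block, and the intervals of spn5 and spn6 are the widest.

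Among the sporulation septins, spn5 (SPAC24C9.15C), needed for the forespore membrane to extend in the right direction, was lower in all 4 deficient cultures but near background. Its signal was 5.79, 5.02, 5.17 and 5.01 in wild-type cultures 1 to 4 and 3.97, 4.43, 4.00 and 4.67 in the deficient cultures. The strains did not overlap, as was so in this direction for 7.71% of the probe sets with a value on every array. The difference was -0.98 ± 0.31 (SE, n = 4 per strain; limma, adjusted p = 0.106). The exact permutation test over the 8 arrays gave an unadjusted two-sided p of 0.0286, the smallest that 4 arrays against 4 allow. Strains that do not overlap always give this value, so it adds nothing to the lack of overlap. Without the variance trend spn5 passed (adjusted p = 0.0460), and with the block it did not (adjusted p = 0.0796). Without both replicate 4 arrays it did not pass either (difference -1.20, adjusted p = 0.0702). In RNA from whole cultures, fewer expressing cells and less RNA per cell cannot be told apart. Within the numbered pairs the difference ran from -1.82 to -0.34 and was below 0 in 4 of 4, as for 25.1% of probe sets.

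No fold is given for spn5, because the controls that bound the deficient signals were on average brighter than the wild-type spn5 signal. Its strain means were 5.25 ± 0.37 for wild type and 4.27 ± 0.34 for the deficient strain (SD, n = 4 each), and the mean bound set by the controls in the deficient strain was 5.51. The brightest control itself was higher in the deficient culture in 4 of 4 numbered pairs, by 0.05 to 1.03. It thus moved opposite to spn5, and its part in the result was not tested. With an offset of 64 added to the linear signal the spn5 difference shrank to -0.30 (adjusted p = 0.114).

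spn6 (SPCC188.12), another septin of the forespore membrane, did not rise above background. Its signal was 4.67, 4.43, 4.64 and 3.89 in wild type and 5.57, 4.23, 5.03 and 4.55 in the deficient strain. Each of these values lay below the brightest control of its array, so no fold is given. The measured means differed by 0.43 ± 0.37 (SE; adjusted p = 0.562), and the direction was shared by 3 of 4 numbered pairs.

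spn7 (SPBC19F8.01C), a forespore membrane septin, gave a signal well above the controls in these growing cultures. The values were 7.66, 8.13, 7.55 and 7.49 in wild type and 7.89, 7.51, 7.90 and 7.06 in the deficient strain. The strains overlapped, and the difference was -0.12 ± 0.22 (SE; adjusted p = 0.812), with a 95% interval of 0.65 to 1.30-fold. It was 0.22 and 0.35 in pairs 1 and 3 and -0.62 and -0.43 in pairs 2 and 4. The sign turned to 0.02 without wild-type replicate 2 and to 0.06 without zfs1-deficient replicate 4, so no direction was established.

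**Figure D3:**
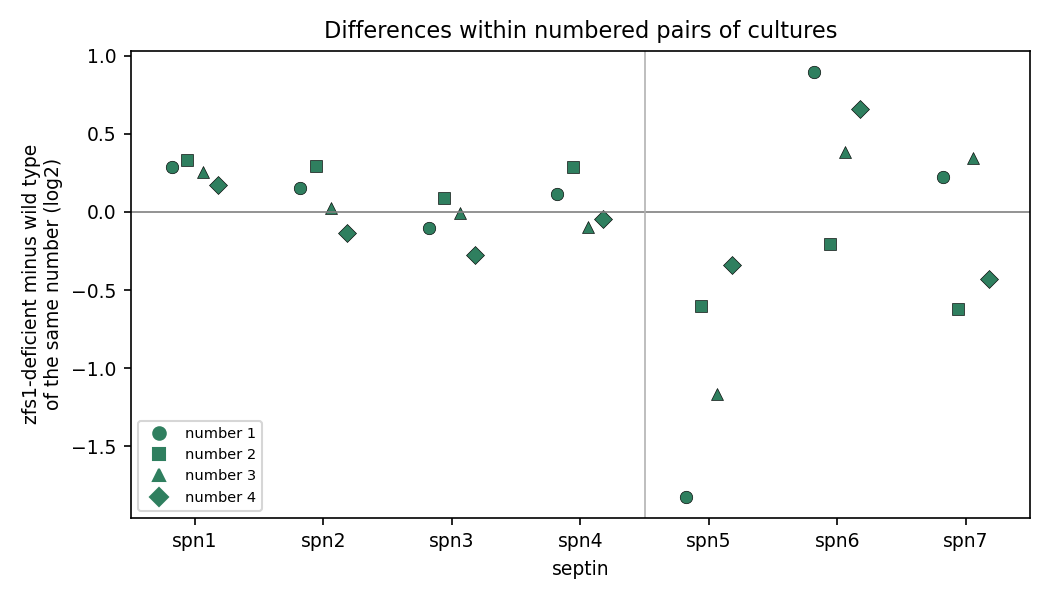
Difference within each numbered pair of cultures (zfs1-deficient minus wild type, log2, vertical axis) for each septin; each symbol is 1 pair. All 4 pairs of spn1 lie above 0 and all 4 of spn5 below it, and the other septins have pairs on both sides.

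The classes were set against each other within each array, as the mean signal of spn5 to spn7 minus that of spn1 to spn4. This value depends on the probes, and only its difference between strains is informative. It was -4.07, -4.18, -4.35 and -4.48 in wild-type cultures 1 to 4 and -4.42, -4.90, -4.54 and -4.44 in the deficient cultures. Deficient cultures 2 and 3 lay below all wild-type cultures, and cultures 1 and 4 lay among them. The means were -4.27 ± 0.18 and -4.58 ± 0.22 (SD, n = 4 each), a difference of -0.31. Without spn5 it was 0.07, and with spn7 as the single sporulation septin, without the dim spn5 and spn6, it was -0.21. Its sign thus depended on which dim septins were counted. By class, the median difference was 0.08 for the vegetative and -0.12 for the sporulation septins, and the former all had signals well above background, whereas 2 of the 3 latter did not. No p is given for this contrast.

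The vegetative septins varied together from culture to culture mainly through replicate 4. In wild type, replicate 4 was the lowest array for spn1, spn2 and spn4, and in the deficient strain for all 4 genes. Replicate 4 was the lowest array of both strains for 28.4% of probe sets. In the deficient strain it lay 0.24 to 0.45 below the mean of the other cultures. After each strain's mean was subtracted, Pearson's r over the 8 arrays lay between 0.64 and 0.85 for the 6 pairs of vegetative septins (median 0.77). The median r of each of these septins with all 2863 other genes lay between 0.07 and 0.17, with upper quartiles of 0.46 to 0.71, so many other genes varied with them to a like degree. Without replicate 4 the 6 pairs ranged from -0.40 to 0.45 over 6 arrays, with a median of 0.18. Over the 8 arrays, the 12 pairs of a vegetative with a sporulation septin ranged from -0.21 to 0.69, with a median of 0.30. The highest of these, spn1 with spn7, lay within the range of the vegetative pairs. The arrays share cultures and labelling, and these values are a description.

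**Figure D4:**
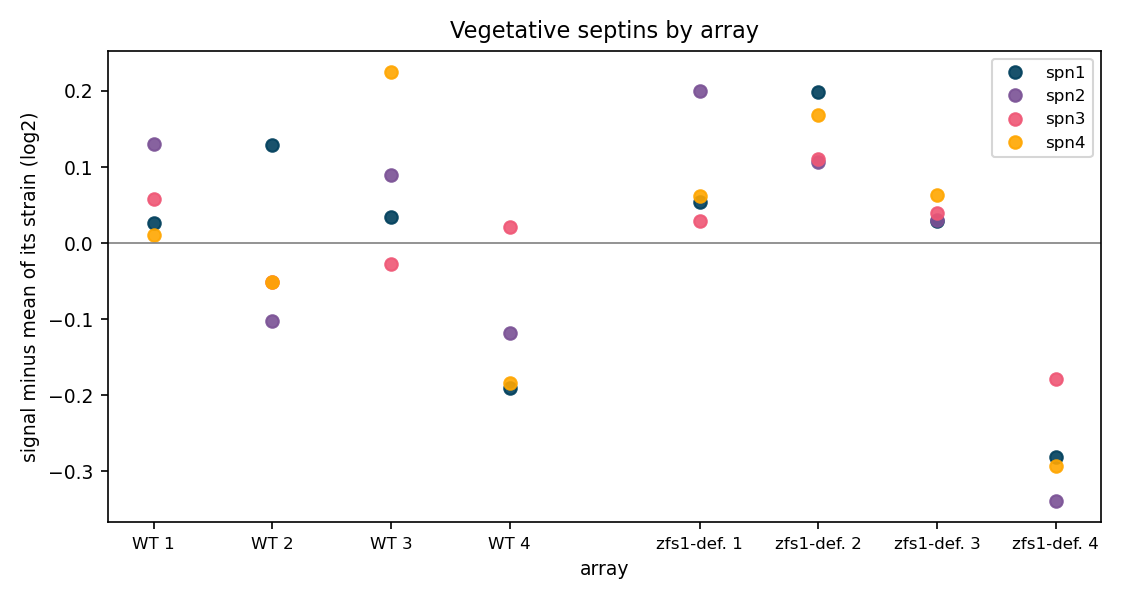
Signal of spn1 to spn4 minus the mean of their strain (log2, vertical axis) on each of the 8 arrays. On zfs1-deficient array 4 all 4 genes lie below 0, and on wild-type array 4 all but spn3 do.

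The sporulation septins did not vary together as a class. Their r was 0.55 for spn6 with spn7, -0.23 for spn5 with spn6 and -0.61 for spn5 with spn7. Without replicate 4 it was 0.38, -0.38 and -0.65 in that order. The upper quartile of r with all other genes was 0.495 for spn6 and 0.569 for spn7, and the 0.55 lay between them. At the signals of spn5 and spn6 such values carry much background. The mean of the vegetative septins differed by 0.08 between strains over all arrays. Without both replicate 4 arrays it differed by 0.14, where the SD was 0.05 in each strain (n = 3). Without both arrays of number 1, 2 or 3 it differed by 0.07, 0.03 and 0.10, with an SD of up to 0.23 in the deficient strain.

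For each septin, the gene names whose strain-centred signals over the 8 arrays were most like it were ranked by r among 2863 genes. spn4 lay closest to cdc10, the gene of a G1/S transcription factor subunit (r = 0.994, and 0.993 without replicate 4), and then to taf6 (0.987). spn7 lay closest to spo20, a phosphatidylinositol transfer protein gene (0.984, and 0.962 without replicate 4), and then to pca1 (0.983). The nearest genes were rpl44 and mak3 for spn1 (0.981 and 0.980), pex6 and sec2302 for spn2 (0.976 and 0.968), and crb2 and lac1 for spn3 (0.968 and 0.964). For the dim septins they were rad57 and mcp3 for spn5 (0.898 and 0.880) and sda1 and ric8 for spn6 (0.955 and 0.952). With 8 arrays and this many genes, high r are found for any gene, and no p is given.

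Of the proteins that act with the vegetative ring, gef3 was the one whose transcript rose. gef3 (SPBC29A3.17) encodes a guanine nucleotide exchange factor that binds the septin complex. Its signal was 7.54, 7.41, 7.40 and 7.80 in wild-type cultures 1 to 4 and 8.11, 8.03, 8.09 and 8.29 in the deficient cultures. The strains did not overlap, as was so in this direction for 7.81% of probe sets. The difference was 0.59 ± 0.13 (SE, n = 4 per strain; limma, adjusted p = 0.0347), or 1.51-fold with a 95% interval of 1.22 to 1.85, against 3.56% of probe sets called higher. It was 0.49 to 0.69 in the numbered pairs, and with the block the adjusted p was 0.00600. The call without the block held in 1 of 8 fits with an array left out, that without wild-type replicate 4. With the block it held when both arrays of any number were left out (adjusted p 0.0174 to 0.0373).

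The other 2 of the 3 measured ring partners did not pass. mid2, an anillin-like protein that holds the septin ring in place, differed by 0.07 ± 0.12 (SE; adjusted p = 0.792). rho4, a small GTPase gene of septum breakdown, differed by 0.20 ± 0.25 (SE; adjusted p = 0.709), and by 0.00 without zfs1-deficient replicate 4. In this list 1 rose and 0 fell, and the median was 0.20.

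The exocyst tethers secretory vesicles at the division site, and it depends on septins for its ring-like placement there. Of its 8 listed genes 5 were measured, and 0 passed in limma, with 0 at unadjusted p under 0.05. With the block 0 passed, and 1, sec8, had an unadjusted p under 0.05. All 5 were lower, with a median of -0.13, where 52.6% of all probe sets were lower. sec8 differed by -0.31 (adjusted p = 0.500), sec10 by -0.14 (0.553) and exo70 by -0.11 (0.646).

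Genes of cell separation encode or control the hydrolases that dissolve the septum. Of 8 listed genes 5 were measured, 0 passed in limma and 0 at an unadjusted p under 0.05. All 5 were higher, with a median of 0.18, where 47.4% of all probe sets were higher. With the block 2 of the 5 rose, against the 11.3% of all probe sets called higher there. sep1, a forkhead factor upstream of the separation genes, differed by 0.32 ± 0.16 (SE; adjusted p = 0.278, and 0.0147 with the block). adg2, another gene of this list, differed by 0.26 ± 0.20 (SE; adjusted p = 0.500, and 0.0449 with the block), and adg3 differed by 0.18 (adjusted p = 0.550). Without both replicate 4 arrays 3 of the 5 were higher and 2 lower, and with the block 1 of them rose, sep1 (adjusted p = 0.0443). Without both arrays of number 1 the block call of sep1 was lost (0.0881), and that of adg2 was lost without those of number 1 (0.172), 3 (0.125) or 4 (0.138).

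Forespore membrane genes, which act where the sporulation septins act, went both ways. Of 9 listed genes 6 were measured, 3 were higher and 3 lower, and 0 passed in limma, with 0 at unadjusted p under 0.05 and likewise 0 with the block. The median was 0.00. spo20 differed by 0.10 (adjusted p = 0.420), spo3, a forespore membrane protein gene, by 0.16 (0.512), and spo7, of the meiotic spindle pole body, by -0.16 (0.799). isp3, the spore wall marker, passed (adjusted p = 0.0498). However, it was above the brightest control on 0 of 4 wild-type and 1 of 4 deficient arrays, so no fold is given. Its call held in 1 of 8 fits with an array left out, and it was lost with an offset of 64 (0.0558) and with the block without both arrays of number 1 (0.0919) or of number 3 (0.0948).

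Of 8 listed regulators of meiosis 7 could be tested. Among them 6 were higher and 1 lower, with a median of 0.28, where 47.4% of all probe sets were higher. Leaving out both replicate 4 arrays, 5 were higher and 2 lower. Without the block 0 passed. At an unadjusted p under 0.05 it was 1, against 20.6% of all probe sets. That was mei4 (SPBC32H8.11), the forkhead factor of the middle meiotic genes. Its signal was 6.51, 6.54, 5.84 and 5.67 in wild type and 7.15, 7.02, 7.02 and 6.31 in the deficient strain. Deficient cultures 1 to 3 lay above all wild-type cultures, and the difference was 0.74 ± 0.27 (SE; adjusted p = 0.163, and 0.0209 with the block). With the block mei4 was the 1 gene of this list that rose, against 11.3% of all probe sets called higher. The block call was lost without both arrays of number 1 (0.0787) or of number 3 (0.0742). The mei4 signal was higher in 4 of 4 numbered pairs, as in 20.8% of probe sets. cuf2, a copper-factor relative that acts with Mei4, differed by 0.97 ± 0.46 (adjusted p = 0.273), with 3 of 8 arrays above the controls. atf31, a bZIP factor, differed by -0.46 ± 0.28 (adjusted p = 0.389), with 4 of 4 wild-type and 1 of 4 deficient arrays above the controls. Of 10 markers of mating cells 7 could be tested, and 0 passed in limma, with 0 at unadjusted p under 0.05. Among them 6 were lower and 1 higher, with a median of -0.12, where 52.6% of all probe sets were lower. With the block 1 fell, the P-factor gene map2 (-0.50, adjusted p = 0.0299), against 12.8% of all probe sets, and this was lost without both replicate 4 arrays (adjusted p = 0.0710).

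**Figure D5:**
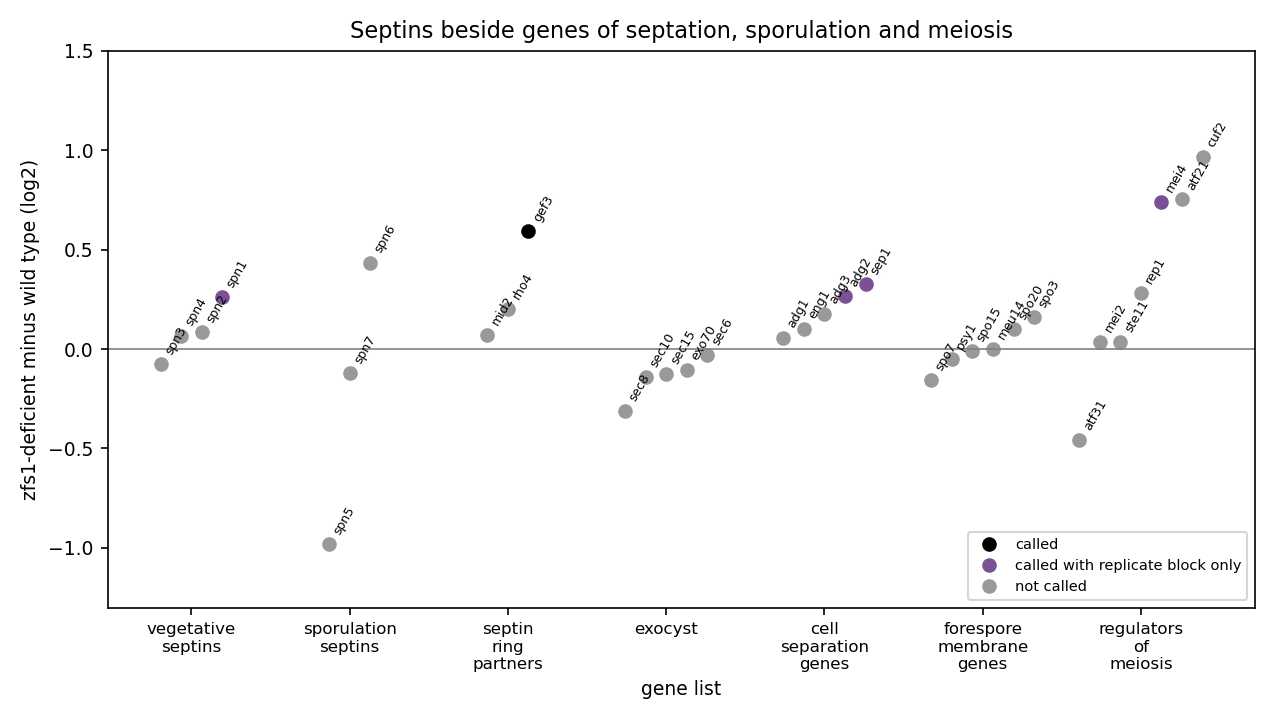
Difference between the strains (log2, vertical axis) of each measured septin and of the genes of 5 lists; black symbols passed without the replicate block, purple ones with it alone, and grey ones in neither fit. gef3 is the 1 black symbol, and spn1, sep1, adg2 and mei4 are purple.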

How the data were processed

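One value table with 8 columns was used. Per the labels, cRNA was hybridised to Affymetrix arrays and signals came from the GeneChip Operating Software; the labels name a nematode array, while the probe table pairs the probe sets with fission yeast genes. The deposited numbers were taken to be log10 signals, a base inferred from the values, since array medians lay between 2.89 and 2.90; the scaling and the step to log10 values are not given in the sources used here. If the base were another, differences and folds would scale but p-values would not change. Values were turned into log2 and used as deposited. Of 5011 probe sets 17 reporter controls measured background. Among the remaining 4994, 0.571% of values were missing, and a test required at least 2 values per strain.

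Probe sets were named from a probe table, with current symbols looked up by gene ID in a table for assembly ASM294v3 (2916 probe sets with 1 symbol, 20 with several, 2058 with none); of several probe sets the brightest on average was used. No coordinates or sequences were used here. The strain comparison used limma 3.58.1 (R 4.3.3) with lmFit, eBayes, a variance trend and two-sided p-values, and was tested on simulated data. The simulated arrays varied independently of each other, so that test does not cover arrays that vary together, as these did. A fold is not given where a gene's signals lie below the brightest control. The exception is a gene whose signals in the other strain lie above the controls there. For it, the rule of the higher of control and own signal can give a bound.

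Deviations from the strain means correlated at 0.37, 0.33, 0.26 and 0.70 for numbers 1 to 4, each above the limit of 0.1. The numbers were therefore used as a block in a further fit, although the labels do not say what they mark. The fit without the block made no use of them. Some arrays of unlike numbers correlated about as highly: the first wild-type array and the third deficient one (0.41), and the third wild-type array and the first deficient one (0.25). The second wild-type array with the third deficient one (0.115) and the third with the second (0.115) also exceeded the limit. The members and gene lists were chosen with earlier results of these data known. The named genes are zfs1, all septins, and of each list those that passed and up to 3 others with the smallest adjusted p; isp3, map2 and the nearest genes by r follow from the marker and likeness rules or were added after their values were seen.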

Additional observations from a re-analysis of the deposited data

How the results depend on the processing

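The strain differences of spn2, spn3 and spn6 kept their sign and stayed short of the threshold under every setting that gave a value. spn5, spn6 and spn7 gave none once the dimmest 25% of all probe sets had been dropped. spn1 passed with the replicate block (0.26), with array weights (0.28, adjusted p = 0.0198) and with the block without both replicate 4 arrays (0.29), the last chosen after the data were seen. spn5 passed with array weights (-1.43, adjusted p = 0.00404) and without the variance trend (-0.98). Its unadjusted p in the exact permutation test was under 0.05, as it is wherever the strains do not overlap. The sign turned for spn7 with array weights (0.15), without replicate 2 of wild type (0.018) or replicate 4 of the deficient strain (0.055) and with the block without both replicate 2 arrays (0.045), where spn4 turned to -0.0067. With 1 array left out, differences ran from 0.19 to 0.35 for spn1, 0.02 to 0.20 for spn2, -0.11 to -0.02 for spn3, 0.01 to 0.16 for spn4, -1.12 to -0.80 for spn5, 0.19 to 0.64 for spn6 and -0.23 to 0.055 for spn7. The class contrast ran from -0.38 to -0.20 with 1 array left out, was -0.16 with an offset of 64, -0.17 without both replicate 2 arrays and -0.42 without both replicate 4 arrays, and turned to 0.072 without spn5. With 1 array left out, rho4 ran from -0.0044 to 0.39 and spo7 from -0.35 to 0.023, the turned signs being those without zfs1-deficient replicate 4, and spo7 turned to 0.013 with the block without both replicate 3 arrays. With array weights sep1 (adjusted p = 0.0158), mei4 (0.0117), cuf2 (0.0481) and spo20 (0.0268) also passed, among 1275 probe sets called. The cause of these changes was not tested. Probe sets called numbered 287, and 1201 with the block, 1275 with array weights, 609 without both replicate 4 arrays, and 888, 481, 991 and 774 with the block without both arrays of number 4, 1, 2 and 3; with 1 array left out they ran from 103 to 306. All 287 were also called with the block. Array weights ranged from 0.20 for zfs1-deficient replicate 4 to 5.42 for zfs1-deficient replicate 3. Signals near the reporter controls limit what spn5 and spn6 can show.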
